A study of Mus musculus with 80 samples.

Results

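The liver of a mouse 10 h into a fast was compared here with the liver of a fed mouse at the same phase of the day, circadian time (CT) 20. The comparison used the 8 libraries whose titles give CT20, 4 fasted and 4 control, out of 80 libraries in the time course. All mice were C57BL/6J, an inbred strain, 8 to 12 weeks old. They were kept in groups of 4 on chow (diet TD.220157) under equal spans of light and dark, and were in constant darkness on the day of sampling. Control mice kept their food, and fasted mice lost it at CT10. Each group held 2 males and 2 females, each library came from the left lobe of 1 mouse, and RNA with a poly(A) tail was sequenced with its strand kept. The titles and the column names of the deposited tables set the groups, because the detailed labels of the CT20 libraries give another treatment for 4 of the 8 and another sex for 4. The sex given by the titles went with the counts of Xist, which marks female cells, and of the Y-linked Ddx3y in all 8 libraries.

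A mouse that loses its food late in the rest phase meets the active phase, when it would eat most, on its stores. Insulin falls and glucagon and glucocorticoids rise, and the liver makes less fatty acid and sterol, releases glucose and turns fatty acids into ketone bodies. The receptor PPAR-alpha (Ppara) senses fatty acids and drives their oxidation, SREBP factors drive lipid synthesis, and one-carbon metabolism supplies the methyl donor S-adenosylmethionine (SAM), while the liver clock reads the time of feeding.

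The libraries held 39136478 to 44779982 counts in fasted and 39466987 to 45358239 in control mice, so that depth was alike in both groups. The 20 genes with the most counts took 23.4% to 24.9% of the counts in fasted and 23.1% to 26.9% in control livers. Fewer genes had a count in fasted livers, 24633 to 25356 against 25582 to 25855, and the groups did not overlap. Control male 2 had 0.433% of its counts on the ribosomal RNA Rn18s-rs5, where the other 7 livers had at most 0.117%. In bulk tissue, fewer cells of a type and less RNA per cell cannot be told apart, and this holds for each fall given here.

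Of 21187 genes with enough counts, 7757 (36.6%) differed between fasted and control livers at an adjusted p under 0.05 by edgeR's quasi-likelihood test. Of these, 3711 (17.5% of the genes tested) rose and 4046 (19.1%) fell. A change of at least 2 times was fitted for 1167 of the rises and 1754 of the falls, and the median over all genes was -0.03 on the log2 scale. At CT8, before food was taken away, the same test between the same 2 arms called 282 genes, or 1.33%. The 4 fasted and 4 control livers did not overlap in log2 CPM for 6306 genes (29.8%), and 5564 of these were called. For 3127 of the genes that rose (84.3%), the mean of the fasted CT20 livers lay above the control mean at each of the 10 times. For 3511 of those that fell (86.8%), it lay below all 10, so that for most called genes the fasted mean was outside the range of the control means. Single control livers can lie beyond those means. The control mean at CT20, against which the genes were called, is 1 of the 10, and no such share was taken among genes not called. Values per liver are given as CPM, counts scaled to a common library size, in the order male 1, male 2, female 1, female 2, and a log2 change is the mean of the change in males and in females, fasted minus control, with its standard error (SE).

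Fgf21 and Srebf1 served as checks of the treatment labels. Fgf21, the liver hormone of fasting, stood at 11.6, 13.1, 24.9 and 14.3 CPM in fasted livers and at 1.26, 0.0494, 0.151 and 0.309 CPM in control livers, and rose by 5.30 ± 0.78 (adjusted p = 4.53e-07). Srebf1, the factor that drives fatty acid synthesis under insulin, stood at 37.3, 34.9, 25.1 and 32.9 CPM in fasted and 313, 329.8, 629.97 and 526 CPM in control livers, a log2 change of -3.74 ± 0.30 (adjusted p = 1.39e-13). No fasted liver reached the range of the controls in either gene, as the plot of 12 genes by liver shows.

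**Figure D1:**
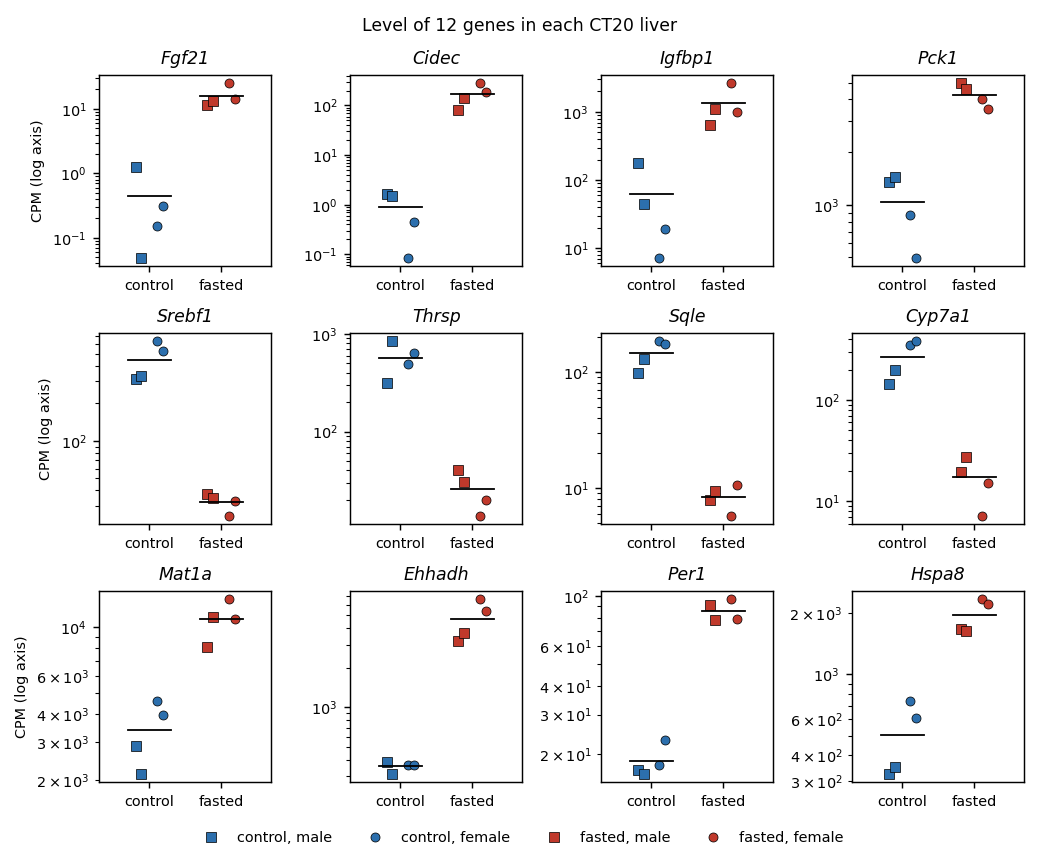
Level of 12 genes in each of the 8 CT20 livers, in CPM on a log axis, with squares for males, circles for females and a black line at the mean of each group. The fasted and control livers are apart in all 12 genes, with Fgf21 between 11.6 and 24.9 CPM in fasted livers and at most 1.26 CPM in controls.

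Among genes whose groups did not overlap and whose mean level was 1 log2 CPM or more, the largest rise was that of Gm15441, a long non-coding RNA gene antisense to Txnip. It had 13, 9, 1 and 1 counts in the 4 control livers, or 0.304, 0.223, 0.0215 and 0.0221 CPM, and 107, 82.6, 48.4 and 40.6 CPM in the fasted livers, a log2 change of 9.64 ± 0.95 by edgeR's quasi-likelihood test (adjusted p = 3.86e-11). The kit kept the strand, but how reads were assigned to strands is not given in the sources used here, and Txnip itself rose by 2.43 ± 0.39, so that counts of both genes may hold reads of the other. Cidec, a lipid droplet protein that fuses droplets, went from 1.61, 1.51, 0.0862 and 0.442 CPM in control livers to 82.0, 141, 281 and 189 CPM in fasted ones (7.97 ± 0.50, adjusted p = 1.77e-16). In controls both genes were lowest in the 2 females. Ppp1r3g, which brings a phosphatase to glycogen, rose from 0.286 ± 0.204 CPM in control to 16.6 ± 7.38 CPM in fasted livers (mean ± SD, n = 4), and Mt2, a metal-binding protein, from 4.31 ± 0.659 CPM in control to 253 ± 198 CPM in fasted livers. Cyp4a14, which oxidizes fatty acids at their far end, rose by 5.83 ± 0.60 and Acot2, which frees fatty acids from coenzyme A in mitochondria, by 4.75 ± 0.42. The other rises among the largest 12 were those of Gm48199 (6.33), Rgs16, a brake on G protein signalling (5.52), E030018B13Rik (5.35), Cgref1 (5.29), Igfbp1 (5.05) and Fgf21.

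Chrna4, a subunit of the nicotinic acetylcholine receptor, fell most among the genes under the same limits. Its level was 24.1, 41.1, 109.8 and 52.6 CPM in control and 1.32, 1.70, 0.326 and 0.586 CPM in fasted livers (-5.96 ± 0.82, adjusted p = 1.09e-07). Angptl8, a protein made after meals that restrains lipoprotein lipase, fell from 91.1 ± 71.1 CPM in control to 2.83 ± 0.787 CPM in fasted livers (-4.71 ± 0.52). Thrsp, a protein of lipid-making tissues, had a log2 change of -4.56 ± 0.61, and Sqle and Mvd, enzymes of sterol synthesis, of -4.09 ± 0.38 and -4.07 ± 0.38. Mmd2 had 17.4, 2.42, 101 and 10.7 CPM in control livers, with a wide spread, and 0.364, 0.215, 2.00 and 1.65 CPM in fasted livers. Further falls among the largest 12 were those of Gm69496 (-4.45), Gm32006 (-4.33), Klhdc7a (-4.16), BC023105 (-4.14) and Hsd3b2 (-3.97), a steroid dehydrogenase with close copies among which counting may split reads.

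Genes of insulin receptor signalling and targets of FOXO factors, which insulin holds back, were changed in both directions, 9 of 18 higher and 5 lower, with a median of 0.57. Called were 77.8% of this list, against 36.6% of all genes tested (17.5% higher and 19.1% lower). Igfbp1, a binding protein for insulin-like growth factors, stood at 175, 44.9, 7.28 and 19.3 CPM in control and 651, 1112, 2642 and 1011 CPM in fasted livers (5.05 ± 0.93, adjusted p = 2.50e-05). The control range spanned from 7.28 CPM in a female to 175 CPM in a male. Irs2, the insulin receptor substrate of the fasted liver, rose by 2.03 ± 0.27, Foxo1 by 1.24 ± 0.14 and Ddit4, an inhibitor of mTORC1, by 2.81 ± 0.71. Enho, which encodes the peptide adropin, fell from 23.3 ± 6.62 CPM in control to 6.01 ± 0.401 CPM in fasted livers (-1.95 ± 0.30). Inpp5f, a phosphatase of phosphoinositides, fell as well (-0.80 ± 0.10). The count of falls in this list was 3 instead of 5 without fasted male 2, fasted female 1, control male 1 or control female 1.

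Of the genes that respond to glucocorticoids, 11 of 17 rose and 1 fell (median 1.41). Mt1, another metallothionein, had 12.6, 5.83, 13.7 and 11.1 CPM in control and 91.4, 226, 371 and 564 CPM in fasted livers, and Lpin1, a phosphatidate phosphatase, rose by 4.25 ± 0.59. Fkbp5, a chaperone of the glucocorticoid receptor, rose by 3.42 ± 0.34, while the receptor gene itself, Nr3c1, fell by 0.53 on the log2 scale (from 115 ± 1.65 CPM in control to 79.8 ± 12.3 CPM in fasted livers). Of 18 immediate early genes, which answer acute stimuli, 8 rose and 0 fell, Jun most (from 10.9 ± 3.89 CPM in control to 49.5 ± 8.96 CPM in fasted livers, 2.19 ± 0.38). Of this list 44.4% were called, against 36.6% of all genes tested (17.5% higher). Without control female 1 the count of rises was 5. The next largest rise was that of Klf10, a zinc finger factor (from 10.4 ± 5.97 CPM in control to 35.0 ± 11.0 CPM in fasted livers, 1.76 ± 0.42).

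The growth hormone and IGF-1 axis had 2 rises and 4 falls among 14 genes, so that 42.9% were called against 36.6% of all genes tested. The receptor gene Ghr fell (-0.91 ± 0.19), as did Igfals, the partner of IGF-1 in blood (from 156 ± 33.9 CPM in control to 67.6 ± 20.8 CPM in fasted livers, -1.20 ± 0.26), and the cytokine receptor Lifr (-1.20 ± 0.22). Igf1 had a log2 change of -0.17 ± 0.17 and was not called (adjusted p = 0.477). Igfbp1 and Igfbp2 were the rises (5.05 ± 0.93 and 0.74 ± 0.22), and the call on Igfbp2 was lost without control male 2 or control female 2 (adjusted p between 0.0672 and 0.0844).

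Targets of PPAR-alpha and genes of lipid droplets rose nearly throughout. Of 25 tested members, 24 rose and 0 fell, with a median of 2.89. Cidea had too few counts and was not tested, and Fabp1, the main fatty acid binding protein of the liver, was not called (0.22 ± 0.29, adjusted p = 0.592). Cyp4a14 stood at 6319, 7393, 11228 and 8951 CPM in fasted and 116, 29.2, 186 and 405 CPM in control livers, with control male 2 lowest. Cyp4a14, Cyp4a10 (4.67), Cyp4a31 (3.78) and Cyp4a32 (1.77) are close copies, and so are Acot1 (4.53) to Acot4 (2.11), so that their counts may be split between copies. Ppara itself rose by 1.40 ± 0.23, Pdk4, which closes the entry of pyruvate into mitochondria, by 3.23 ± 0.52, and Cpt1a, which admits fatty acids, by 2.04 ± 0.16. Angptl4, an inhibitor of lipoprotein lipase, rose by 3.63 ± 0.48, where its relative Angptl8 fell.

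In the oxidation of fatty acids, 25 of 30 genes rose and 0 fell (median 1.21). Ehhadh, an enzyme of peroxisomal oxidation, had 383, 314, 367 and 363 CPM in control and 3218, 3666, 6599 and 5387 CPM in fasted livers (3.67 ± 0.25, adjusted p = 2.18e-15). Pex11a, which divides peroxisomes, rose from 54.1 ± 22.5 CPM in control to 468 ± 14.1 CPM in fasted livers. The mitochondrial dehydrogenases Acadm, Acadl and Acadvl rose by 1.53, 1.13 and 0.71. The short-chain enzymes Acads (0.21) and Hadh (0.19) were not called. For ketone bodies, 4 of 7 genes rose and 1 fell. Slc16a1, a carrier that exports ketone bodies, rose by 0.91 ± 0.14. Oxct1, which uses ketone bodies and is scarce in hepatocytes, fell from 8.35 ± 2.77 CPM in control to 4.42 ± 0.284 CPM in fasted livers, a call lost without control male 1 or control female 1 (adjusted p between 0.0752 and 0.0786).

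**Figure D2:**
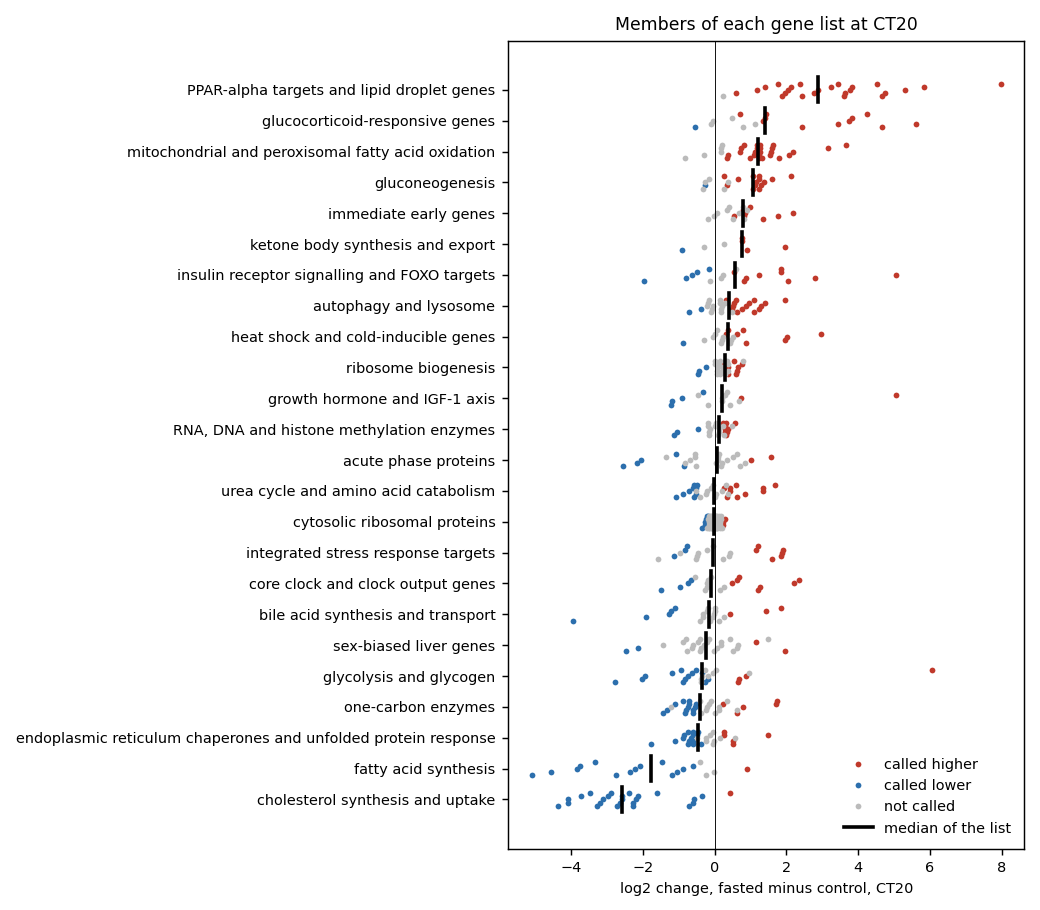
Log2 change at CT20, fasted minus control, of each tested member of 24 gene lists, with members called higher in red, called lower in blue and not called in grey, and a black bar at the median of each list. Lists are in order of their median, from 2.89 for PPAR-alpha targets to -2.58 for cholesterol synthesis.

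Gluconeogenesis, the making of glucose, had 14 rises and 1 fall among 20 genes (median 1.07). Pck1, its rate-setting enzyme, had 1348, 1439, 874 and 499 CPM in control and 4952, 4567, 4036 and 3518 CPM in fasted livers (2.12 ± 0.26, adjusted p = 6.83e-09). G6pc1, which releases free glucose, rose by 1.24 ± 0.29, and the coactivators Ppargc1a and Ppargc1b by 1.28 ± 0.34 and 1.60 ± 0.23. Fbp1, another enzyme of the path, had a log2 change of -0.32 ± 0.14 and was not called (adjusted p = 0.0785), though it was without control male 2 or control female 2 (adjusted p between 0.0254 and 0.0484). Mdh1 was the 1 member called lower (-0.28 ± 0.10), a call lost without fasted male 1, fasted female 2, control male 1 or control female 1 (adjusted p between 0.0513 and 0.147).

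Glycolysis and glycogen genes moved mostly the other way, with 13 falls and 4 rises among 25 genes. Of this list 68.0% were called, against 36.6% of all genes tested (17.5% higher and 19.1% lower), and the rises were near their share over all genes. Pklr, the liver pyruvate kinase, fell by 1.94 on the log2 scale. Among the subunits that bring phosphatase to glycogen, Ppp1r3c fell (from 145 ± 47.8 CPM in control to 37.3 ± 15.3 CPM in fasted livers), Ppp1r3b fell (-1.18 ± 0.29) and Ppp1r3g rose (6.05 ± 1.09). Gys2, the liver glycogen synthase, rose (from 106 ± 20.5 CPM in control to 192 ± 30.6 CPM in fasted livers), and Pygl, which breaks glycogen down, fell (-0.88 ± 0.19).

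The genes of fatty acid synthesis fell, 14 of 18, and 1 rose (median -1.76). Pnpla3, a lipid droplet protein under SREBP-1c, fell most (from 16.3 ± 15.5 CPM in control to 0.354 ± 0.252 CPM in fasted livers, -5.10 ± 0.65). Thrsp stood at 315, 841, 492 and 644 CPM in control and 40.3, 30.1, 13.8 and 19.8 CPM in fasted livers. The synthetic enzymes themselves fell by different amounts, with log2 changes of -3.84 for Acly, -2.74 for Fasn, -1.46 for Acaca and -2.06 for Scd1. The 1 rise was that of the elongase Elovl5, with overlap between the groups (0.89 ± 0.22).

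The list with the lowest median was that of cholesterol synthesis and uptake, where 24 of 25 genes fell (median -2.58) and 1 was called higher. Sqle had 97.5, 130.2, 183 and 176 CPM in control and 7.87, 9.39, 5.77 and 10.5 CPM in fasted livers (adjusted p = 8.22e-12). Fdps, which makes farnesyl pyrophosphate, stood at 196, 319.7, 304 and 302 CPM in control and 30.1, 28.6, 14.5 and 16.2 CPM in fasted livers (-3.72 ± 0.27), with control male 1 below the other 3 controls. Insig1, which retains SREBP in the endoplasmic reticulum, fell by 2.96. The smallest fall was that of Srebf2, the factor behind the path (-0.35 ± 0.13), not called without fasted male 1, fasted female 1, control male 2 or control female 2 (adjusted p between 0.100 and 0.209). The 1 rise was that of Hsd17b7 (0.43 ± 0.14), a call lost without fasted male 2, fasted female 1, control male 1 or control female 1 (adjusted p between 0.0615 and 0.104).

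Because these genes moved together, their promoters are shown. Of the 6 members with the largest falls, 3 (Mvd, Idi1 and Mvk) have a promoter in the RefSeq table used here, which is on GRCm38.p6, a different build from that of the counts. The 250 bases before the start were searched on both strands for 6 motifs. They were CCAAT, the box bound by NF-Y, CCACG, a part of the element of the unfolded protein response, the E-box CACGTG, the core GAANNTTC of the heat shock element, the cyclic AMP element TGACGTCA, and TCACNCCAC, a form of the sterol element. CCAAT was in all 3 and in 33.8% of 32851 promoters of that length. TCACNCCAC was in none of the 3 and in 1.05% of all promoters, and a sterol element with other letters would not have been found. In each printed sequence, capitals mark the matches to any of the 6 motifs, on either strand, so that CCAAT also appears as ATTGG, and CCACG and CACGTG can overlap.
Mvd, chr8:122443423-122443672, minus strand: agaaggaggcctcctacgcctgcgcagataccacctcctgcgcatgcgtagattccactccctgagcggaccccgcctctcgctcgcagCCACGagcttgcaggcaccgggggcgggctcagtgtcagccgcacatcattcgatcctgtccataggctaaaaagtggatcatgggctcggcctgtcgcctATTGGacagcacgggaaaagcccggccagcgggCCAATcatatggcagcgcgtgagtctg
Mvk, chr5:114444019-114444268, plus strand: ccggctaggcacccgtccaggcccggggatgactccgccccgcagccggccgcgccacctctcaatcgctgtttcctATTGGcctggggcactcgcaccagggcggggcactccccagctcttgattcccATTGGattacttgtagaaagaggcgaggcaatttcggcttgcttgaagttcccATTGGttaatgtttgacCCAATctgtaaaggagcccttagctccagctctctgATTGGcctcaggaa

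In one-carbon metabolism, 13 of 30 enzymes fell and 5 rose (median -0.40). Over all genes tested, 17.5% were called higher and 19.1% lower. The rises in this list were thus near their share over all genes, and the falls were above theirs. The makers of SAM were among the rises. Mat1a, the SAM synthetase of the adult liver, had 2857, 2146, 4584 and 3989 CPM in control and 8145, 11132, 13389 and 10879 CPM in fasted livers (1.72 ± 0.17, adjusted p = 6.22e-11). It was higher in every fasted liver than in any control. Mat2a, the SAM synthetase of other tissues, rose from 58.8 ± 6.82 CPM in control to 102 ± 4.44 CPM in fasted livers, and Ahcy, which clears S-adenosylhomocysteine, from 1322 ± 42.2 CPM in control to 2039 ± 214 CPM in fasted livers. Mat2b, a regulatory subunit, rose by 0.24 ± 0.08, but not without fasted male 2, fasted female 1 or control female 1 (adjusted p between 0.0522 and 0.0954).

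Among the falls were enzymes that use SAM. Gnmt, which takes up surplus SAM, had a log2 change of -0.59 ± 0.18 (adjusted p = 0.00694), Pemt, which makes phosphatidylcholine, of -0.53 ± 0.11, and Gamt, which makes creatine, of -1.33 ± 0.39. Gatm, the step before Gamt, fell from 13.8 ± 2.15 CPM in control to 5.06 ± 0.984 CPM in fasted livers and Shmt1, which loads one-carbon units on folate, from 222 ± 39.2 CPM in control to 127 ± 10.9 CPM in fasted livers. Remethylation by Mtr (-0.16 ± 0.08, adjusted p = 0.126) was not called, nor was Bhmt (0.63 ± 0.32, adjusted p = 0.118), which was called without control male 2 (adjusted p = 0.0337). In transsulfuration, Cth fell (-0.70 ± 0.27), a call lost without fasted male 1, fasted female 1, fasted female 2, control male 1 or control female 1 (adjusted p between 0.0790 and 0.357), and Cbs was not called (-0.40 ± 0.21), though it was without control female 2 (adjusted p = 0.0422). Nnmt, which spends SAM on nicotinamide, was not called either (0.36 ± 0.40, adjusted p = 0.531).

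Enzymes that methylate, demethylate or read RNA, DNA and histones had 9 rises and 3 falls among 25 (median 0.13). Of the list 48.0% were called, against 36.6% of all genes tested. Rnmt, which caps mRNA with a methyl group, rose from 12.3 ± 1.28 CPM in control to 18.2 ± 1.09 CPM in fasted livers (0.57 ± 0.09), and Zc3h13, a partner of the writer of N6-methyladenosine, by 0.38 ± 0.10. Mettl3, the writer itself, was called at 0.25 ± 0.10 but in none of the 8 fits that left out a liver. The largest falls were of DNA methyltransferases, Dnmt3b (from 9.05 ± 1.29 CPM in control to 4.19 ± 1.01 CPM in fasted livers) and Dnmt1 (from 18.8 ± 1.82 CPM in control to 9.05 ± 0.596 CPM in fasted livers), while Dnmt3a was not called (0.13 ± 0.12, adjusted p = 0.392). Both were already lower in that arm at CT8, before food was taken away. There the log2 change was -0.77 for Dnmt1, called by edgeR's quasi-likelihood test (adjusted p = 0.0365). For Dnmt3b it was -0.78 and not called (adjusted p = 0.0707). At CT20 the log2 changes were -1.05 for Dnmt1 and -1.12 for Dnmt3b.

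The clock list had 7 of 19 genes higher, 4 lower and 8 not called. Called were 57.9% of this list, against 36.6% of all genes tested (17.5% higher and 19.1% lower). The falls were thus near their share over all genes. Per1 stood at 17.1, 16.4, 17.9 and 23.2 CPM in control and 91.1, 78.5, 96.6 and 78.8 CPM in fasted livers (2.22 ± 0.35, adjusted p = 1.68e-06). Per2 and Per3, its paralogs in the same repressor complex, went the other way. Their log2 changes were -0.45 and -0.66 in males, neither called by the quasi-likelihood test (adjusted p = 0.341 and 0.333). In females they were -1.46 and -2.34, both called. The difference between the sexes was not called in either gene (adjusted p = 0.654 and 0.604). Per2 had 41.9, 42.6, 96.4 and 58.4 CPM in control and 37.9, 24.1, 29.0 and 27.2 CPM in fasted livers (-0.95 ± 0.22), and Per3 fell from 16.4 ± 3.77 CPM in control to 6.12 ± 3.65 CPM in fasted livers (-1.50 ± 0.33). Ciart, a repressor of the clock, rose from 1.65 ± 0.794 CPM in control to 7.74 ± 1.37 CPM in fasted livers (2.36 ± 0.39). Nr1d1 and Nr1d2, the REV-ERB receptors that repress Bmal1, rose by 1.27 ± 0.35 and 1.21 ± 0.16, with overlap between the groups in both. The call on Nr1d1 was lost with limma-voom in place of edgeR (adjusted p = 0.0644).

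Of the activator genes, Clock rose from 81.1 ± 7.37 CPM in control to 126 ± 18.1 CPM in fasted livers (0.63 ± 0.11), Bmal1 had a log2 change of -0.20 ± 0.28 (adjusted p = 0.626) and Npas2 of -0.55 ± 0.37 (adjusted p = 0.254). The cryptochromes Cry1 (-0.22 ± 0.20, adjusted p = 0.428) and Cry2 (-0.11 ± 0.13, adjusted p = 0.576) were not called. Of the PAR bZIP output factors, neither Dbp (0.16 ± 0.40), Tef (-0.28 ± 0.16) nor Hlf (0.25 ± 0.18) was called, nor was Bhlhe41 (-0.18 ± 0.42). Rora encodes a receptor that competes with REV-ERB, and Bhlhe40 a repressor. Rora rose (0.47 ± 0.13), Bhlhe40 fell (-0.75 ± 0.22), and Nfil3 rose (0.67 ± 0.22), a call lost without fasted male 2, control male 2 or control female 1 (adjusted p between 0.0530 and 0.0899).

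CT20 lies on the falling side of the daily wave of Per1 in fed livers. Control Per1 went from 73.2 ± 15.1 CPM at CT12 to 33.3 ± 16.2 at CT16, 18.6 ± 3.09 at CT20 and 6.68 ± 2.74 at CT28. In fasted livers it was 84.7 ± 22.0, 88.5 ± 15.5 and 86.3 ± 9.08 CPM at CT12, CT16 and CT20, so that its decline was not seen by CT20. Per2 followed another course, with a mean of 56.8 ± 3.23 CPM in fasted and 105 ± 33.1 CPM in control livers at CT16, and its fasted mean at CT20 lay within the range of control means. The promoters of Ciart and Per1 printed here held CACGTG, which is bound by CLOCK and BMAL1, which 6.02% of all promoters hold. Per1 has a second promoter in the table, without it. Of the 6 clock genes that rose most and were searched, 2 held it, and Per3, the 1 falling gene with a promoter in the table, did not.
Ciart, chr3:95882229-95882478, minus strand: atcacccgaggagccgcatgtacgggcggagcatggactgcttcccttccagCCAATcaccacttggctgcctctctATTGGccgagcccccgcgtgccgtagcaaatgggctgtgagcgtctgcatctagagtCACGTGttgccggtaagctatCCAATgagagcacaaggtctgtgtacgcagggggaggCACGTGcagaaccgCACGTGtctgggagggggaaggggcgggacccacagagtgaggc
Per1, chr11:69098699-69098948, plus strand: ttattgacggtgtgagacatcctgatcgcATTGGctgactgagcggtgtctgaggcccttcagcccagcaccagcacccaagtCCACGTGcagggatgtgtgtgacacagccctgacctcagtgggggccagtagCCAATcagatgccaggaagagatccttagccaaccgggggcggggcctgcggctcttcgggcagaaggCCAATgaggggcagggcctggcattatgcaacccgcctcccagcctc

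**Figure D3:**
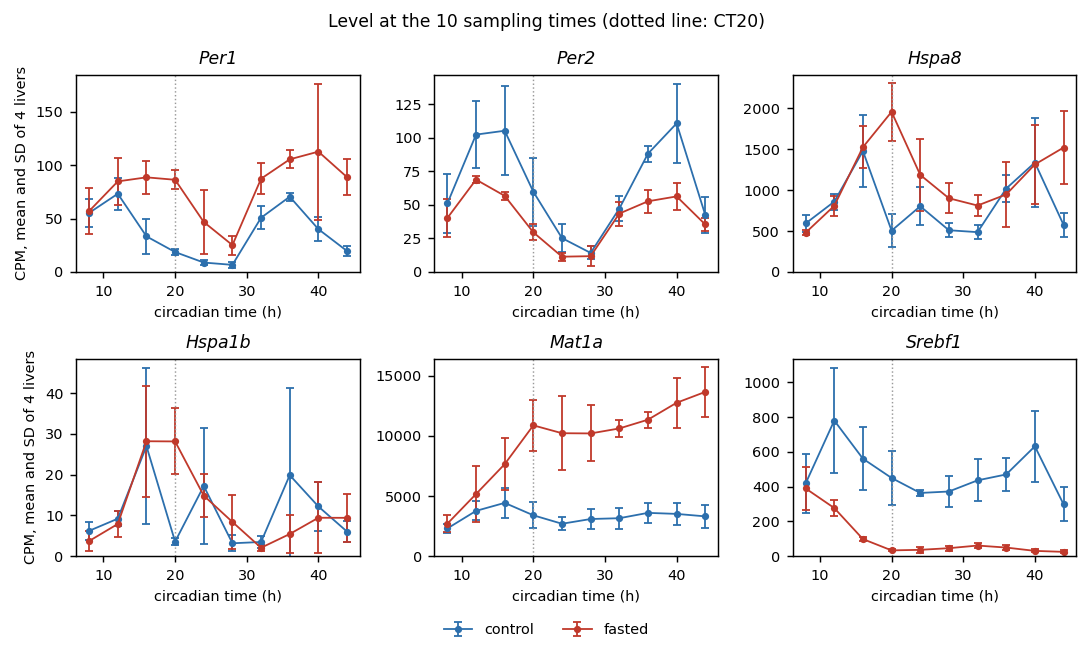
Level of 6 genes in control (blue) and fasted (red) livers at the 10 sampling times, in CPM on axes from 0, with points at the mean and bars for the SD of 4 livers, and a dotted line at CT20. Per1 stayed high in fasted livers through CT20, and Hspa8 in control livers fell from 1479 CPM at CT16 to 505 CPM at CT20 while it stayed high in fasted livers.

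Of 19 heat shock and cold-inducible genes, 8 rose and 1 fell, so that 47.4% were called against 36.6% of all genes tested. Hspa8, the constitutive chaperone of the cytosol, had 326, 351, 736 and 608 CPM in control and 1674, 1633, 2323 and 2204 CPM in fasted livers (2.02 ± 0.21, adjusted p = 1.58e-10). Hspa1b, an inducible member of that family, had 3.01, 3.29, 4.80 and 3.03 CPM in control and 22.5, 19.9, 35.9 and 34.2 CPM in fasted livers (2.95 ± 0.57, adjusted p = 4.36e-05), and its neighbour and near-copy Hspa1a rose by 1.97 ± 0.53, so that counts may be split between the pair. The groups were far apart in these genes. In the time course, the control mean of Hspa8 was 1479 ± 443 CPM at CT16, 505 ± 200.2 at CT20 and 804 ± 232 at CT24, and the fasted mean 1526 ± 259.7, 1958 ± 356 and 1187 ± 439. For Hspa1b, the control mean went from 27.0 ± 19.1 CPM at CT16 to 3.53 ± 0.857 at CT20, where the fasted mean went from 28.2 ± 13.6 to 28.1 ± 8.11. In both genes the control mean at CT20 was lower than 4 h earlier, while the fasted mean was higher for Hspa8 and nearly the same for Hspa1b. Cochaperones of the family rose as well, Dnajb1 by 0.78 ± 0.22, Hsph1 by 0.89 ± 0.31 and Dnaja1 by 0.61 ± 0.18, and the call on Hsph1 was lost without fasted male 1, fasted female 2, control male 1 or control female 2 (adjusted p between 0.0545 and 0.0810). The HSP90 genes Hsp90aa1 (0.20, adjusted p = 0.491) and Hsp90ab1 (0.23, adjusted p = 0.153) were not called by edgeR, but DESeq2 called both (adjusted p = 0.0494 and 0.00543). The cold-inducible Cirbp was not called (-0.31 ± 0.21, adjusted p = 0.266). Fkbp4, a cochaperone of HSP90, fell from 239 ± 29.4 CPM in control to 129.9 ± 13.8 CPM in fasted livers. Of the 6 rising genes with the largest change, 5 had a promoter in the table. GAANNTTC was in 3 of them (Hspa1b, Hspa1a and Dnaja1) and in 6.69% of all promoters, and also in that of Fkbp4.
Hspa1b, chr17:34959239-34959488, minus strand: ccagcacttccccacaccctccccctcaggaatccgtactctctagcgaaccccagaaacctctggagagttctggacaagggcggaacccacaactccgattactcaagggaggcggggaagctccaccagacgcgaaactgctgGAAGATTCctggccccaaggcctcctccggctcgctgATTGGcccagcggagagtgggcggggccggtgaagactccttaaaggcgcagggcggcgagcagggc

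Chaperones of the endoplasmic reticulum and genes of the unfolded protein response mostly fell, 15 of 29, with 5 rises (median -0.46). Of this list 69.0% were called, against 36.6% of all genes tested (17.5% higher and 19.1% lower), and the rises were near their share over all genes. Sdf2l1, a partner of BiP in the reticulum, fell from 24.7 ± 12.5 CPM in control to 7.12 ± 2.01 CPM in fasted livers (-1.76 ± 0.34), and Sec61b, part of the channel for new proteins, from 29.8 ± 4.50 CPM in control to 14.3 ± 4.53 CPM in fasted livers (-1.09 ± 0.14). The foldases Pdia6 (-0.87), Pdia4 (-0.65) and Pdia3 (-0.60), the chaperone Calr (-0.72) and the factor Xbp1 (-0.60) fell as well. BiP itself, Hspa5, was not called (-0.14 ± 0.22, adjusted p = 0.668). Herpud1, which serves the removal of misfolded proteins, rose against the list (196, 221, 104 and 109.7 CPM in control and 575, 476, 359 and 313 CPM in fasted livers, 1.49 ± 0.28). The count of rises was 3 without fasted male 1, fasted male 2, fasted female 2, control male 1, control female 1 or control female 2. The call on Xbp1 was lost without fasted female 1 or control male 1 (adjusted p between 0.0633 and 0.0842). The promoters of Herpud1 and Sdf2l1, which moved apart, both held CCAAT and CCACG, and CCACG is in 28.3% of all promoters. The element of the unfolded protein response also sets the distance between these parts, which was not part of the search, so that holding both is not enough to show it. The 2 promoters differed in that distance. In Herpud1 the closest pair, ATTGG and CCACG, began 52 and 46 bases before the start, with 1 base between them. In Sdf2l1 the closest pair, ATTGG and CGTGG, began 26 and 17 bases before it.
Herpud1, chr8:94386179-94386428, plus strand: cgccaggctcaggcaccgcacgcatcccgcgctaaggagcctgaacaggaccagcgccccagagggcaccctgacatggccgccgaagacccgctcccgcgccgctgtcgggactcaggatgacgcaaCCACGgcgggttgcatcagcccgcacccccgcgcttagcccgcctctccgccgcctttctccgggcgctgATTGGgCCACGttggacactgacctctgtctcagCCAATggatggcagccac
Sdf2l1, chr16:17132384-17132633, minus strand: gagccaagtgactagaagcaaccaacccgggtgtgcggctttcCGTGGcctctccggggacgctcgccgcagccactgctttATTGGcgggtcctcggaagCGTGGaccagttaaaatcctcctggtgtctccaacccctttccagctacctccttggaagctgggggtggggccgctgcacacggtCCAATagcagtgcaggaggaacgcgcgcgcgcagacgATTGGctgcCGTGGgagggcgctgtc

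Targets of the integrated stress response had 6 rises and 3 falls among 19 tested genes, so that 47.4% were called against 36.6% of all genes tested. Cebpb, a factor that is also induced by glucagon, rose from 67.5 ± 10.1 CPM in control to 246 ± 29.6 CPM in fasted livers (1.87 ± 0.27), and Chac1, which degrades glutathione, rose with overlap between the groups (1.91 ± 0.58). Aldh18a1, an enzyme of proline synthesis, fell (-1.13 ± 0.36), but not without fasted female 1 (adjusted p = 0.0685), and the list then had 1 fall. Slc7a11 had too few counts and was not tested.

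Cytosolic ribosomal protein genes stayed near 0 as a group, with 68 of 79 not called, 3 higher, 8 lower and a median of -0.03. The count of falls was 2 without fasted female 1 or control female 1 and 4 without fasted male 1, fasted male 2, control male 1 or control male 2, 5 with DESeq2 or in a fit of the CT20 livers alone, and 14 with upper quartile scaling. The called changes were small, with -0.34 for Rps2, the largest fall, and 0.24 for Rpl22. In ribosome biogenesis 11 of 30 genes rose and 3 fell, Rrs1 most among the rises (0.76 ± 0.19) and Npm1, the abundant nucleolar protein, next (from 68.5 ± 4.75 CPM in control to 108 ± 10.7 CPM in fasted livers). That count of rises was 4 without control female 2, and 46.7% of this list were called against 36.6% of all genes tested. Dkc1 and Nhp2, parts of the enzyme that makes pseudouridine, were the largest falls (-0.46 ± 0.13 and -0.42 ± 0.13), and the count of falls was 1 without fasted female 1 or control female 1.

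Of 30 genes of autophagy and the lysosome, 15 rose and 2 fell (median 0.40), so that 56.7% were called against 36.6% of all genes tested. Bnip3, a receptor for the removal of mitochondria, had 89.7, 100.1, 71.7 and 107 CPM in control and 315, 352, 413 and 357 CPM in fasted livers (1.96 ± 0.16, adjusted p = 4.38e-13), and Wipi1, which acts at the forming autophagosome, rose by 1.39 ± 0.33. Ctsb, a lysosomal protease, fell from 643 ± 84.3 CPM in control to 393 ± 28.7 CPM in fasted livers, and Atg7 fell by 0.39 on the log2 scale.

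Urea cycle and amino acid catabolism had nearly equal counts, 10 higher and 9 lower of 30, so that 63.3% were called against 36.6% of all genes tested. Aass, the first enzyme of lysine breakdown, rose from 419.9 ± 133 CPM in control to 1325 ± 239 CPM in fasted livers (1.67 ± 0.21), and Tdo2, which opens the ring of tryptophan, from 1171 ± 209.6 CPM in control to 2977 ± 415 CPM in fasted livers (1.35 ± 0.17). Further along the tryptophan path, Haao fell from 466 ± 40.1 CPM in control to 228 ± 66.4 CPM in fasted livers (-1.08 ± 0.16).

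In bile acid synthesis and transport, 3 of 20 genes rose and 5 fell, so that 40.0% were called against 36.6% of all genes tested. Cyp7a1, the rate-limiting enzyme of bile acid synthesis, stood at 145, 198, 346 and 379.7 CPM in control and 19.3, 27.5, 7.18 and 15.1 CPM in fasted livers (-3.95 ± 0.67, adjusted p = 5.80e-06). Cyp8b1, which sets the share of cholic acid, went up, from 357 ± 92.7 CPM in control to 953 ± 181 CPM in fasted livers (1.42 ± 0.23), and Cyp2c70, which makes muricholic acids in mice, down (-1.91 ± 0.23). Abcb4, which exports phosphatidylcholine into bile, rose from 199 ± 31.1 CPM in control to 729 ± 106 CPM in fasted livers (1.86 ± 0.14).

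Acute phase proteins had 2 rises and 5 falls among 24, so that 29.2% were called against 36.6% of all genes tested. Lbp, which binds bacterial lipopolysaccharide, rose from 69.3 ± 15.6 CPM in control to 209 ± 51.2 CPM in fasted livers (1.56 ± 0.22). Saa2, serum amyloid A, had 54.2, 197, 12.3 and 12.4 CPM in control and 5.17, 8.45, 5.39 and 8.04 CPM in fasted livers, with both control males above both control females, and its fall (-2.54 ± 0.94) was not called without fasted male 1, fasted male 2, fasted female 1, fasted female 2, control male 2 or control female 1 (adjusted p between 0.0507 and 0.136). The count of falls was 2 without fasted male 1 or fasted female 1, 3 without fasted male 2, control male 2 or control female 1, 3 with limma-voom, 9 in a fit of the CT20 livers alone and 10 with DESeq2. The count of rises was 1 without fasted female 2 or control female 1 and 5 in females alone.

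Markers of the cell types of the liver were checked in full, and the defining markers of hepatocytes were present in all 8 livers, with summed levels of 113393 to 135147 CPM in fasted and 90904 to 125085 CPM in control livers. Of the 9 tested, 3 rose and 1, the thyroid hormone carrier Ttr, fell (-0.40 ± 0.15), though not without fasted male 2, fasted female 2, control male 1 or control female 2 (adjusted p between 0.0719 and 0.119). Hnf4a, the factor that defines hepatocytes, rose from 676 ± 20.8 CPM in control to 1132 ± 46.3 CPM in fasted livers (0.74 ± 0.14). The lymphocyte and neutrophil list fell in 5 of 11 tested genes, all of B cells, among them Ms4a1, Ighm, Cd79a and Cd79b, and its summed level was 3.90 to 9.59 CPM in fasted and 20.3 to 28.1 CPM in control livers. Ms4a1 had 76, 22, 65 and 31 counts in control and 5, 1, 6 and 5 counts in fasted livers (-3.37 ± 0.53, adjusted p = 1.48e-06). None of the T cell, natural killer cell and neutrophil markers tested was called. Of the hepatocyte list 44.4% and of the lymphocyte and neutrophil list 45.5% were called, against 36.6% of all genes tested.

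Among Kupffer cell markers 4 of 10 fell and none rose, with summed levels of 351 to 547 CPM in fasted and 526 to 655 CPM in control livers, which overlap. The macrophage marker Adgre1 fell (-0.77 ± 0.25), but not without fasted male 1 or fasted female 1 (adjusted p between 0.0508 and 0.0783), and the list had 0 calls without fasted male 1 or fasted female 1 and 2 without control male 2, against 7 falls in a fit of the CT20 livers alone and 8 with DESeq2. In stellate cells and fibroblasts 4 of 10 genes fell, led by the collagens Col3a1 (29.1, 36.7, 36.4 and 19.3 CPM in control, 7.61, 8.34, 8.32 and 6.21 CPM in fasted livers, -1.99 ± 0.26) and Col1a1 (-1.36 ± 0.35), while the summed levels of 405 to 617 and 438 to 602 CPM overlapped. Bile duct cells had 4 falls among 7 tested markers (summed 36.8 to 47.7 CPM in fasted and 47.6 to 69.5 CPM in control livers), Krt7 by 1.05 on the log2 scale, and 2 falls without control female 2. Sinusoidal endothelial cells had 5 rises, Stab1 among them (0.43 ± 0.08), and 2 falls, Kdr (-0.36 ± 0.07) and Dnase1l3 (-0.38 ± 0.11), in 10 genes, with summed levels of 641 to 758 and 602 to 732 CPM, and 3 rises without fasted female 1 or control male 2. Red cell markers summed to 46.2 to 194 CPM in fasted and 64.3 to 261 CPM in control livers, with 1 fall in 6, that of Alas2 (-0.76 ± 0.23), which was not called without control female 1 (adjusted p = 0.229). Of 12 pancreas and adipose markers, 9 were at 0 in all 8 livers and none was called. Called were 40.0% of the Kupffer and of the stellate and fibroblast markers, 57.1% of the bile duct, 70.0% of the endothelial and 16.7% of the red cell markers. Over all genes tested it was 36.6%. The part of these cell types in the changes of other genes was not tested.

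Fasting could act differently in males and females, and the difference between their effects at CT20 was tested directly. edgeR's quasi-likelihood test called 0 genes, with 1449 at an unadjusted p under 0.05, and limma-voom called 0 with 1497 at that level. Leaving out fasted female 2 gave 1 call, Tiam2, and leaving out control female 2 gave 1 other, Gm56570, both named after their values were seen. Of the 7757 genes called over both sexes, 7735 (99.7%) had the same sign in males and in females, which share in the test that called them. The smallest p-values were those of Rfx7 (log2 change 0.02 in males and -0.95 in females, adjusted p = 0.0876) and Tiam2 (-1.48 and -4.08, adjusted p = 0.0913). Tiam2, an activator of the GTPase Rac, had 6.55, 5.52, 0.279 and 0.959 CPM in fasted and 17.2, 16.4, 10.4 and 10.2 CPM in control livers, lowest in the fasted females. Cars2, Clcn2 and Mthfsl came next (adjusted p = 0.400 each).

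Of 26 sex-biased genes of the liver, 2 rose, 2 fell and 22 were not called, so that 15.4% were called against 36.6% of all genes tested. Without control male 1 there were 0 rises, and without fasted female 1 or control female 1 there was 1 fall. Cyp2u1 fell most (35.8, 33.4, 12.2 and 4.53 CPM in control, 10.3, 6.57, 0.977 and 1.23 CPM in fasted livers, -2.48 ± 0.38), within each sex. Elovl3, an elongase higher in males, had 416, 739.5, 1.75 and 2.72 CPM in control and 896, 794, 22.1 and 24.1 CPM in fasted livers, and its rise (1.96 ± 0.63) was not called without control male 1 or control female 1 (adjusted p between 0.0634 and 0.0639).

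The effect at CT20 was next compared with that at CT16, 4 h earlier, and CT24, 4 h later, in other mice with their own controls. At CT16 4955 genes were called (23.4%) and at CT24 5099 (24.1%). The 3556 genes called at both CT20 and CT16 in the same direction were 45.8% of the CT20 calls and 71.8% of the CT16 calls. For CT24 they were 3850, or 49.6% and 75.5%. A call at 1 time and not at another is no difference in itself, so the difference between the effects was tested.

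The effects at CT20 and CT16 differed in 761 genes (3.59%), 399 with a higher and 362 with a lower log2 change at CT20. Of the 664 that were also called at CT20, 631 had the larger effect at CT20. Both calls rest on the same CT20 livers, and choosing genes by both favours a larger effect at CT20. That share therefore does not show that effects grew. The count was 386 without fasted male 2, 343 without fasted female 1, 417 without control male 1 and 449 without control female 1. The 5 genes of smallest p were Rdh11, a retinol dehydrogenase (-1.18 at CT16, -2.97 at CT20), Abcf3 (-0.26, 0.47), Fdps (-1.24, -3.72), Cidec (3.63, 7.97) and Gm3571 (-1.16, -3.75), and each was called in all 8 fits that left out a liver. Cholesterol genes fell further by CT20 in 15 of 25 (list median -1.38 at CT16 and -2.58 at CT20). In fatty acid oxidation 12 of 30 genes had risen further (medians 0.50 and 1.21), a count that fell to between 3 and 7 without any one of the CT20 livers other than control female 2. Mat1a had a larger rise at CT20 (0.79 and 1.72, adjusted p = 0.0174), a difference lost without fasted male 2, fasted female 1 or control male 2. No gene of the clock list was called as different between these times.

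Between CT20 and CT24 the effects differed in 149 genes (0.703%), 73 higher and 76 lower at CT20, against 45 and 94 with upper quartile scaling and 87 and 53 with limma-voom. This count fell when any 1 of the 8 livers was left out. It was 0 without fasted female 1 (with 2786 genes at an unadjusted p under 0.05), 14 without fasted male 2, 19 without control male 1 and 33 without control female 1. It was 50 without fasted male 1, 75 without fasted female 2, 103 without control female 2 and 107 without control male 2. The smallest p-values were those of Cramp1 (0.46 at CT20, -0.18 at CT24), Cdc42ep1 (0.40, -0.50), Golga4, a Golgi tether (0.70, 0.21), Gm8326 (3.09, 0.30) and Tpm1, a tropomyosin (-0.66, -0.04). The call was kept in 6 of the 8 such fits for Golga4 and in 7 for each of the other 4. Hspa8 differed from CT24 (2.02 against 0.55, adjusted p = 0.0133) and from CT16 (0.06, adjusted p = 8.10e-05), and both tests share the CT20 livers. The call was kept in 7 and 8 of the 8 fits that left out a liver. Hspa1b also differed from CT16 (0.36 against 2.95, adjusted p = 0.0422), but in none of those 8 fits. Of the clock list, Tef differed from CT24 (-0.28 against 0.74, adjusted p = 0.0239), in 4 of the 8 fits. No gene of cholesterol synthesis, fatty acid synthesis, fatty acid oxidation or gluconeogenesis was called as different between CT20 and CT24.

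**Figure D4:**
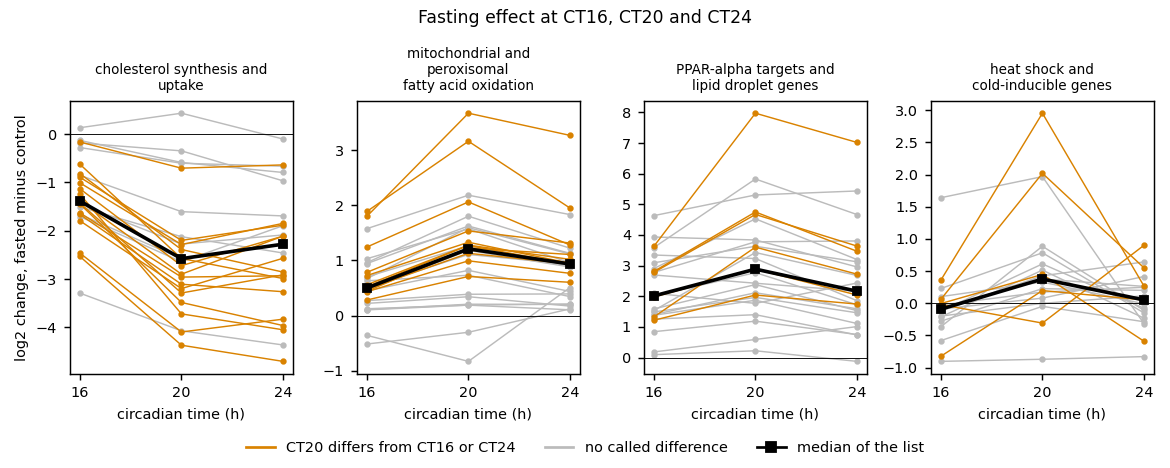
Log2 change, fasted minus control, at CT16, CT20 and CT24 for the members of 4 gene lists, each line 1 gene, in orange where the effect at CT20 was called as different from that at CT16 or CT24 and in grey otherwise, with the median of the list in black. The cholesterol median goes from -1.38 at CT16 to -2.58 at CT20 and -2.28 at CT24. The log2 changes of Hspa8 and Hspa1b are largest at CT20. For Hspa1b the difference from CT16 was called in none of the 8 fits that left out a liver.

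The exon table gives counts for numbered bins of exons, without coordinates, and was used to ask whether the make-up of transcripts changed along with their amount. Of 11738 genes tested with edgeR's exon test, 211 (1.8%) had a bin whose share of its gene changed, 76 of them with a higher level in fasted livers, 60 with a lower level, 69 not called in level and 6 not tested in level. Of 184714 bins, 197 gained and 235 lost share. Fermt2, which links integrins to the cytoskeleton, had the smallest p. Its bin 15 took 2.10, 3.06, 2.11 and 2.00% of the counts of the gene in control livers and 0.296, 0.193, 0.192 and 0.197% in fasted livers. The log2 change of the bin relative to the gene was -3.39, and the adjusted p of the gene by the exon test was 1.14e-26. Bin 5 of Ces1c, a carboxylesterase with close copies among which reads may be split, took 0.111, 0.132, 0.146 and 0.127% in control and 0.0397, 0.0149, 0.00920 and 0.0202% in fasted livers. These shares are small, and the bins did not overlap between the groups.

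The 3 bins that gained share among the genes of smallest p took a low share in control livers. Bin 14 of Chd9, a chromatin remodeller, had 0.388 ± 0.122% in control and 3.76 ± 1.26% in fasted livers (mean ± SD, n = 4), bin 8 of Ncoa4, the receptor for the breakdown of ferritin, 0.102 ± 0.112% and 0.709 ± 0.123%, and bin 7 of Rtf2, a replication termination factor, 0.277 ± 0.218% and 2.86 ± 0.507%. The control livers had a mean of 12.5, 9.75 and 10.5 counts on these bins. With at least 10 counts required in each liver, Chd9 and Rtf2 were no longer called. That limit also drops bin 8 of Ncoa4, whose control mean was below 10, so that the call kept on Ncoa4 came from its other bins. Bin 5 of Ncoa4 lost share in the main test (log2 change relative to the gene -0.87). Mat1a was called as well (adjusted p = 1.63e-14). Its bin 1 took 0.588, 0.649, 0.392 and 0.365% in control and 0.250, 0.189, 0.110 and 0.167% in fasted livers, and its mean count of 1043 in control and 1048 in fasted livers barely moved while the gene rose. Bin 2 of Mat1a also lost share (1.72 ± 0.202% to 0.892 ± 0.143%). In Ahcy, bin 11 gained share (0.0842 ± 0.0290% to 0.191 ± 0.0266%), with an adjusted p of the gene of 8.89e-09 by the exon test.

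**Figure D5:**
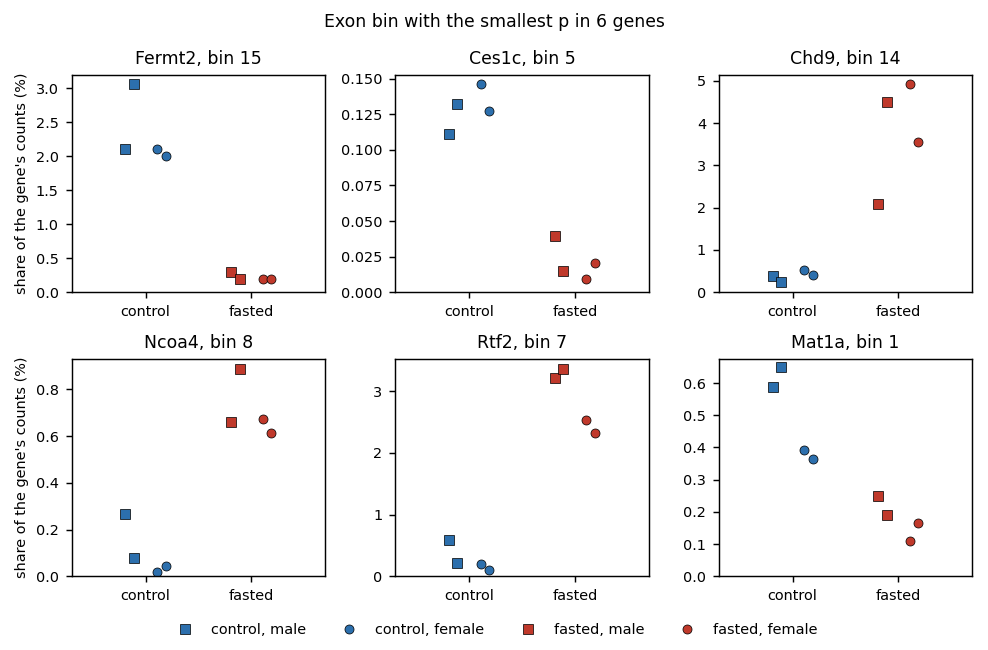
Share of the counts of a gene that lie on the exon bin of smallest p, in percent on axes from 0, in each of the 8 CT20 livers for 6 genes, with squares for males and circles for females. Fermt2, Ces1c and Mat1a lose share of the bin in fasted livers, Chd9, Ncoa4 and Rtf2 gain it, and the groups do not overlap in any of the 6.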

How the data were processed

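Gene expression was measured by RNA sequencing in livers of fasted and control mice. The authors trimmed reads with Trimmomatic, aligned them with HISAT2 and used DESeq2, on GRCm39, per the submitters' processing notes, which give no versions. The counting program and its strand setting are not given in the sources used here. The deposited tables used hold raw counts per gene and raw counts per exon bin, and the deposited normalised table was not used.

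Groups came from the titles and column names. Of 78275 genes listed, 21187 passed filterByExpr. They were fitted with edgeR 4.0.16 (R 4.3.3, TMM scaling, glmQLFit, glmQLFTest) in 1 model of 80 libraries and 40 means, 1 per combination of treatment, sex and time. The Benjamini-Hochberg adjustment ran over all genes tested. CPM used the TMM-scaled library sizes, with a prior count of 2 on the log2 scale. The effect at CT20 is the mean of the effects in the sexes, and differences between sexes or times are contrasts of the same fit. Exon bins of the 8 livers were tested with diffSpliceDGE and Simes p-values per gene. A p under 0.05 after adjustment is a call. limma 3.58.1 and DESeq2 1.42.0 gave alternatives. Each test was checked on simulated counts. Nothing says more of the replicates than that they are separate mice, and the 4 livers of a group differed by more than counting error in every pair.

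The members and gene lists were chosen with earlier results of these data known, and lists are described by counts and medians, without a test. Genes were named by a rule. It took the 12 largest rises and falls whose groups did not overlap at 1 log2 CPM or more, the 2 called members of each list with the largest rise and fall, all clock genes, one-carbon genes that the article names, the 5 smallest p-values of each difference and of exon usage, and Fgf21 and Srebf1. Another 55 list members were named after their values were seen. Some genes that the rule or the lists would name are not reported here. Promoter windows of 250 bases came from RefSeq on GRCm38.p6, and no gene coordinates are given for GRCm39.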

Additional observations from a re-analysis of the deposited data

Results flagged for a closer look

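In 11 of 430 groups of 4 livers the highest or lowest value stood apart, with a gap to the next value that was too large a part of the range by Dixon's test, where chance alone gives about 1 in 20. Ppp1r3c was lowest in control male 1, at 6.21 log2 CPM with 7.33 to 7.44 in the other 3 (gap 0.915). Oxct1 was highest in fasted male 2, at 2.29 log2 CPM with 2.11 to 2.12 in the other 3 (gap 0.956). Haao was highest in control female 2, at 9.04 log2 CPM with 8.78 to 8.82 in the other 3 (gap 0.838). Lyve1 was lowest in fasted male 1, at 4.21 log2 CPM with 4.90 to 5.02 in the other 3 (gap 0.851). Ms4a1 was lowest in fasted male 2, at -3.75 log2 CPM with -2.50 to -2.42 in the other 3 (gap 0.943). Fdps was lowest in control male 1, at 7.62 log2 CPM with 8.24 to 8.32 in the other 3 (gap 0.881). Acot1 was lowest in control female 1, at 3.43 log2 CPM with 4.50 to 4.68 in the other 3 (gap 0.855). Fkbp5 was lowest in fasted male 1, at 8.20 log2 CPM with 8.66 to 8.71 in the other 3 (gap 0.911). Xbp1 was highest in control male 1, at 8.04 log2 CPM with 7.46 to 7.51 in the other 3 (gap 0.908). Control male 2 had the highest share of counts on Rn18s-rs5, 0.433%, with 0.0705% to 0.113% in the other controls (gap 0.884 of the range). Control male 2 had the highest share of counts on mitochondrial genes, 6.50%, with 5.71% to 5.84% in the other controls (gap 0.837 of the range).

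The fasting effect at CT20 differed from that at CT16 in 761 genes by edgeR's quasi-likelihood test, and 38 of the named genes are among them, given here with the CT20 minus CT16 difference of their log2 changes. Called in all 8 fits that left out a CT20 liver were Hsd3b2 (-2.79), Gm3571 (-2.59), Fdps (-2.48), Idi1 (-2.04), Acly (-1.96), Mvk (-1.86), Rdh11 (-1.79), Acadl (0.65), Abcf3 (0.73), Bnip3 (1.11), Ehhadh (1.87), Hspa8 (1.96), Gm8326 (2.61), Cgref1 (4.21) and Cidec (4.34). Called in 4 to 7 of the 8 fits were Chrna4 (-4.07), Thrsp (-2.79), BC023105 (-2.77), Tiam2 (-1.48), Insig1 (-1.33), Golga4 (0.39), Rtf2 (0.62), Abcb4 (0.72), Acadm (0.75), Cpt1a (0.82), Mat1a (0.94) and Cyp4a10 (1.89). Called in 1 to 3 of the 8 fits were Sqle (-1.63), Enho (-1.41), Col3a1 (-1.33), Sec61b (-0.70), Ctsb (-0.57), Pex11a (1.27) and Acot2 (1.94). Called in none of the 8 fits were Pemt (-0.54), Acadvl (0.43), Hsp90aa1 (1.02) and Hspa1b (2.60).

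The fasting effect at CT20 differed from that at CT24 in 149 genes by edgeR's quasi-likelihood test, and 11 of the named genes are among them, given here with the CT20 minus CT24 difference of their log2 changes. Called in 4 to 7 of the 8 fits were Ms4a1 (-3.55), Tef (-1.02), Tpm1 (-0.62), Golga4 (0.50), Cramp1 (0.64), Cdc42ep1 (0.90), Hspa8 (1.47) and Gm8326 (2.79). Called in 1 to 3 of the 8 fits were Tiam2 (-1.37) and Rtf2 (0.65). Called in none of the 8 fits was Cirbp (-1.21).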

How the results depend on the processing

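The number of genes changed at CT20, 7757, lay between 6325 and 6922 when each of the 8 livers was left out in turn, where the lone mouse of a sex and treatment is assumed to vary like the other groups. It was 5139 in males alone, 4401 in females alone and 2187 when tested against a change of 1.5 times. Of these genes, 4864 (62.7%) were called in all 8 fits that left out a liver. The count of genes that differed from CT16, 761, was 196 at an adjusted p under 0.01, 503 with no filter but a summed count of 10, and 343 to 626 without 1 liver, and 237 (31.1%) were called in all 8. The count for CT24, 149, was 1 at an adjusted p under 0.01, 70 with the summed count of 10, 245 with at least 1 CPM in 4 livers, 254 with only the livers of these times, and 0 to 107 without 1 liver. No gene was called for CT24 in all 8 fits, and the count of 0 by edgeR without fasted female 1 stood beside 2786 genes at an unadjusted p under 0.05. The count for the sexes stayed at 0 under every scaling, filter and model tried, limma-voom among them, and was 0 or 1 without 1 liver. Genes with changed exon usage were 328 with the F test, against 211, and 171 to 197 without 1 liver. The cause of these shifts was not tested, beyond the fewer or more genes tested under the filters.

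Whether mice of the same number shared a batch is not given in the sources used here. Within each sex, same-numbered fasted and control mice did not deviate together (r = 0.0204 in males and 0.0178 in females over 21187 genes). This correlation runs over genes in few mice, so it cannot exclude a shared batch. With a replicate block the counts were 7202 at CT20, 549 against CT16, 26 against CT24, 0 between the sexes and 186 for exon usage.

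Of 4399 values of named genes under an alternative, 4146 kept direction and call, 208 lost and 26 gained the call. The sign turned in 19, of which 1 was of a gene called at CT20. The changes of other sign in males alone were Tef (0.22), Rfx7 (0.019), Chd9 (0.075), Cry2 (0.012) and Fbp1 (0.018). The changes of other sign in females alone were Hlf (-0.097), Mtr (0.048), Cirbp (0.040), Cars2 (0.46), Dbp (-0.17) and Mthfsl (-0.24). With no sex in the model, Cars2 had 0.022. With 1 liver left out, Cars2 ranged from -0.10 to 0.057 and turned without fasted male 1, fasted female 2, control male 1 and control female 2, Hspa5 ranged from -0.30 to 0.054 and turned without control male 2 and control female 1, and Bhlhe41 ranged from -0.46 to 0.25 and turned without control male 2. The cause was not tested. Counts were few for Gm15441 in control livers and for Ms4a1 in fasted livers. They were also few in control livers on the exon bins of Chd9, Ncoa4 and Rtf2 that gained share. The size of these changes is therefore less certain, and the part of depth was not tested.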
